A study of Mus musculus with 96 samples.

Results

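Agtr2, Chodl and Olfml1 are 3 mouse genes whose transcripts were high in serum-starved embryonic fibroblasts and fell to low levels after serum was given back. Chodl and Olfml1 fell to the edge of detection, while Agtr2 stayed measurable. The genes were selected by symbol, and account for 3 of the 15895 genes in the table. The choice rested on measured values: at the shared time of largest change, averaged over both time courses, they ranked 1, 3 and 5 among falls of the same direction in both courses. These changes were -8.75 for Agtr2 at 22 h, -7.77 for Chodl at 15 h and -7.09 for Olfml1 at 26 h, on the log2(signal + 1) scale. Between them stood Lgr5 at -8.24 and Adamts15 at -7.54, and just outside was Scn7a at -7.08. The Olfml1 value rests in part on a count of 0 at 26 h of Cycle 1, so its place before Scn7a is not firm. The size of the fall is therefore how the genes were chosen and is described here with no test.

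The cells were primary mouse embryonic fibroblasts (MEFs) of CF-1 mice at embryonic day 13, and no introduced allele is named in the labels. They were held in 0.5% fetal calf serum for 36 h, after which serum was brought to 20% at 0 h. RNA was sequenced once per time point in 2 time courses, Cycle 1 from 1 h before serum to 38 h and Cycle 2 from 1 h before serum to 27 h. The 63 libraries of Cycle 1 and 32 of Cycle 2 include 4 labelled as starved, at -1 and 0 h of each Cycle, and 29 time points after serum are shared. Whether the Cycles came from separate embryos or cultures is not given in the sources used here, so the p-values measure the spread between these libraries only.

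Cells deprived of growth factors leave the cycle for quiescence (G0), a reversible state with its own set of expressed genes, and serum returns them to G1. Agtr2 encodes the type 2 angiotensin receptor, a G protein-coupled receptor that is abundant in fetal mesenchyme and is known for opposing growth signals of the type 1 receptor. Chodl encodes chondrolectin, a transmembrane protein with a C-type lectin domain, and Olfml1 encodes a secreted protein with an olfactomedin domain.

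Each value is a normalized signal, the reads on a gene's exons scaled to 10000000 per library. The value of a single read was read off the steps between low values in a column and lay between 0.69 and 1.97, corresponding to depths from 5067431 to 14500276 reads. Intervals and floors given below cover counting error only. The signal is a share of all RNA, so fewer cells of a type and less RNA per cell cannot be told apart. The 10 fibroblast markers on the list were all present, with a summed signal of 368510 to 546150 in the starved libraries. The other marker lists summed in the starved libraries to 217 to 292 (endothelial, 6 of 6 genes in the table), 1104 to 3492 (macrophage, 6 of 7), 110 to 346 (epithelial, 6 of 6), 1134 to 1798 (myogenic, 5 of 7), 229 to 266 (neuronal, 8 of 9), 114 to 198 (Schwann and glial, 5 of 6) and 372 to 718 (chondrocyte, 5 of 5). No listed marker was at 0 in every library. From 20 to 27 h the fibroblast sum was 176500 to 207820 and the endothelial sum 56.3 to 138. By the call defined further down, 5 of 10 fibroblast, 4 of 6 endothelial, 0 of 6 macrophage, 1 of 6 epithelial, 1 of 5 myogenic, 2 of 8 neuronal, 4 of 5 Schwann and glial and 2 of 5 chondrocyte markers were lower after serum, beside 32.4% of all genes, and their part in the falls was not tested.

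Libraries that stand apart are named first. Both libraries labelled 0 h carried immediate early transcripts: Fos was 914 at -1 h and 24883 at 0 h in Cycle 1, and 466 and 15149 in Cycle 2. Egr1 was 8.33 and 10.4 times its -1 h level in the same libraries. The 3 genes themselves were 0.75 to 1.06 times their -1 h level there, and the half-times, the levels left after the fall, the difference between the Cycles and the counts of calls are given without these libraries too. The 24.5 h library of Cycle 1 deviated most from its neighbours in time, with a median log2 deviation of 0.41 over 9112 genes with a mean signal over 100. The 20 h library of Cycle 2 ranked 8 of 28 by that measure, but stood apart for the genes described here, as set out below.

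The stretch of 250 bases before each gene's annotated start is shown as a description. The sequences are RefSeq's (GRCm38.p6), and each matched the NCBIM37 genome, the build of the files, at 1 place: chrX:21061500-21061749 for Agtr2, chr16:78930943-78931192 for Chodl and chr7:114710697-114710946 for Olfml1, all on the plus strand. Capitals mark the motifs found.
Agtr2: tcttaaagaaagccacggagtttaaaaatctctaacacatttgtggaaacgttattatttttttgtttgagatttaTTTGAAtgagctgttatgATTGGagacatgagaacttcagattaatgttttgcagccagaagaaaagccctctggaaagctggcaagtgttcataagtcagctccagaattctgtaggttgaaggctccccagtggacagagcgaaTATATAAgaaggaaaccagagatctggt
Chodl: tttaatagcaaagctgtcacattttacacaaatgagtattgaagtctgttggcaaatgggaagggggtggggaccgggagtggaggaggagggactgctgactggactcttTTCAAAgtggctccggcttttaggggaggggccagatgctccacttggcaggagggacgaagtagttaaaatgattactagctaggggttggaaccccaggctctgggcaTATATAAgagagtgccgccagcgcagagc
Olfml1: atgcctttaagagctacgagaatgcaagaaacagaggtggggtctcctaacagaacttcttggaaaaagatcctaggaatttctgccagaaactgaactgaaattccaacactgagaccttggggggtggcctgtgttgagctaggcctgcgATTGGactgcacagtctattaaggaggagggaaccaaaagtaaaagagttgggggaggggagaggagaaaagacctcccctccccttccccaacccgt
Both strands were searched for the TATA box forms TATAAA and TATATAA, the CCAAT box, the Sp1 site GGGCGG, the forkhead site TGTTTAC, the AP-1 site TGANTCA, the cell cycle homology region TTTGAA, and TTTCGCGC and TTTGGCGC for E2F. TATATAA was added after the sequences were seen. It lay at -28 to -22 in Agtr2 and -29 to -23 in Chodl, was not in the Olfml1 window, and is held by 3.04% of 32851 promoters of this length. CCAAT was found on the minus strand (ATTGG) at -156 to -152 in Agtr2 and -98 to -94 in Olfml1, against 33.9% of all promoters. TTTGAA was found at -174 to -169 in Agtr2 and, on the minus strand (TTCAAA), at -139 to -134 in Chodl, against 16.0%. No match was found in the 3 windows to TATAAA (12.4% of all promoters), GGGCGG (32.7%), TGTTTAC (3.17%), TGANTCA (6.75%), TTTCGCGC (0.256%) or TTTGGCGC (0.417%). A match is a description, not a site.

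In the GENCODE M1 annotation of NCBIM37, Agtr2 spans 4621 bases on chromosome X (21061670 to 21066290, plus strand) in 4 exonic segments. Chodl spans 20786 bases on chromosome 16 (78931193 to 78951978, plus strand) in 7 segments, and Olfml1 spans 23649 bases on chromosome 7 (114710960 to 114734608, plus strand) in 3. The RefSeq start of Agtr2 lies 80 bases inside the GENCODE gene, so its printed window runs into that annotation's gene. 

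Agtr2 was by far the most abundant of the 3 transcripts in starved cells, and its level differed between the Cycles. Its signal was 10118 at -1 h and 9291 at 0 h in Cycle 1, against 1136 and 950 in Cycle 2. The Cycle 1 mean was 9.30 times the Cycle 2 mean. Olfml1 had 487 and 516 in Cycle 1 against 205 and 154 in Cycle 2, a ratio of 2.79. Chodl had 433 and 430 against 362 and 346, a ratio of 1.22. Per kilobase of exon the starved Cycle 1 signal was 2918 for Agtr2, 298 for Olfml1 and 113 for Chodl, and in Cycle 2 it was 314, 107 and 92.6, so Agtr2 led in both Cycles. Genes of proliferation stood the other way in the same starved libraries: Mki67, a marker of cycling cells, had means of 1147 in Cycle 1 and 3387 in Cycle 2, the S phase cyclin gene Ccna2 had 797 and 2497, and Mcm5, a subunit of the replicative helicase, 432 and 1099. From 20 to 27 h of Cycle 2 their means were 2498, 2532 and 1496. Starved cells of Cycle 2 thus had more Mki67 than cells in serum, about as much Ccna2 and less Mcm5. Listed cell type markers also differed between the starved libraries of the 2 Cycles, in both directions. The macrophage marker Lyz2 had means of 847 in Cycle 1 and 2881 in Cycle 2, and the myogenic marker Myh3 473 and 93.8. The part of these genes in the differences between the Cycles was not tested.

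**Figure D1:**
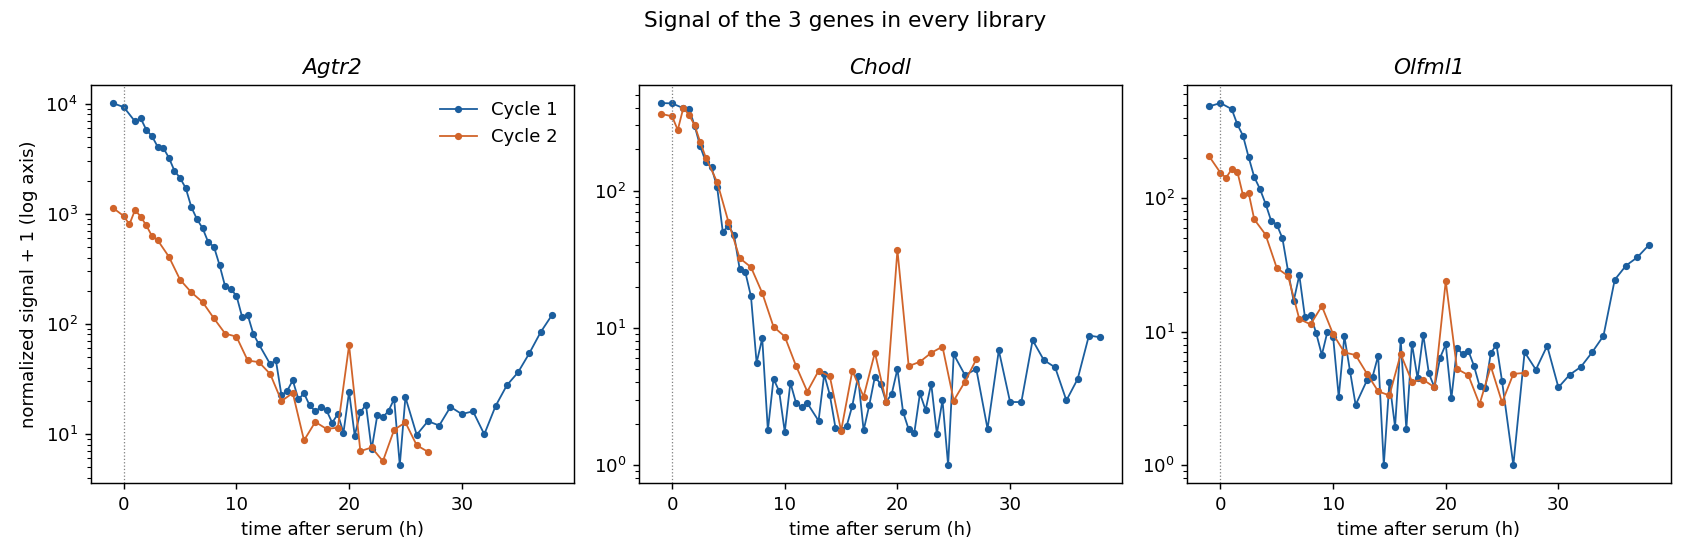
Normalized signal + 1 (log axis) of Agtr2, Chodl and Olfml1 against time after serum (h), 1 point per library, Cycle 1 in blue and Cycle 2 in orange; the dotted line marks 0 h. The Cycles start 9.30-fold apart for Agtr2 and 1.22-fold apart for Chodl, and the points of both Cycles lie together from about 15 h, apart from the 20 h library of Cycle 2.

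At 1 h each of the 3 transcripts was still above 70% of its starved level. Agtr2 stood at 6881 in Cycle 1 and 1081 in Cycle 2 at that time, Chodl at 397 and 400, and Olfml1 at 465 and 164. In Cycle 1 these were 70.9%, 91.9% and 92.6% of the starved mean, and in Cycle 2 they were 104%, 113% and 91.6%. The 0.5 h library, sequenced in Cycle 2 only, lay lower, at 76.6%, 77.8% and 78.6%.

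From 1.5 to 3 h the values went down at nearly every step. Agtr2 passed through 7363, 5772, 5063 and 4073 at 1.5, 2, 2.5 and 3 h of Cycle 1 and through 939, 781, 626 and 575 in Cycle 2. Chodl passed through 394, 295, 208 and 160 in Cycle 1 and 355, 298, 223 and 172 in Cycle 2. Olfml1 passed through 357, 293, 203 and 143 in Cycle 1 and 157, 105, 109 and 68.5 in Cycle 2. The only step upward among these was that of Olfml1 from 2 to 2.5 h in Cycle 2.

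The half-time was taken as the first time below 50% of the mean of the -1 and 0 h libraries of the same Cycle, with the next library below it as well, by linear interpolation. It was 2.23 h for Olfml1, 2.46 h for Chodl and 2.61 h for Agtr2 in Cycle 1, and 2.74, 2.95 and 3.32 h in Cycle 2. The order of the genes was the same in both Cycles, and each half-time was later in Cycle 2 than in Cycle 1. Neighbours in this order differed by less than the same gene did between the Cycles, so the order is not beyond that spread. Other baselines, interpolation on the log2 scale or whole hours only gave 2.19 to 2.71 h over the genes in Cycle 1 and 2.41 to 3.59 h in Cycle 2. These ranges include the -1 h libraries alone as the baseline.

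Beside other genes, the 3 genes passed 50% later than most that did so, and passed 10% earlier than most that did. The choice by size of fall favours an early passage of 10%, so that is no separate finding. For Olfml1 in Cycle 2 the 50% time was near the median. Of 10472 genes with a starved mean of at least 50 in both Cycles, 2540 (24.3%) went below 50% of it in both, with median half-times of 1.84 h in Cycle 1 and 2.65 h in Cycle 2. Of these, 63.3% had a shorter half-time than Olfml1, 68.4% than Chodl and 70.8% than Agtr2 in Cycle 1, and 52.8%, 57.8% and 62.2% in Cycle 2. Below 10% of the starved mean went 98 genes (0.936%) in both Cycles, the 3 genes among them. They reached it at 5.46 h (Olfml1), 5.58 h (Chodl) and 6.34 h (Agtr2) in Cycle 1 and at 6.53, 5.84 and 8.22 h in Cycle 2, against medians of 8.00 and 15.2 h. Of the 98 genes, 35.7%, 37.8% and 41.8% reached it before Olfml1, Chodl and Agtr2 in Cycle 1 and 21.4%, 17.3% and 28.6% in Cycle 2. With the -1 h libraries alone as the baseline these times were 5.51, 5.58 and 6.26 h in Cycle 1 and 6.34, 5.81 and 7.94 h in Cycle 2, in the same order of genes. Going from 50% to 10% took 3.12 h for Chodl, 3.23 h for Olfml1 and 3.73 h for Agtr2 in Cycle 1 and 2.89, 3.79 and 4.90 h in Cycle 2.

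**Figure D2:**
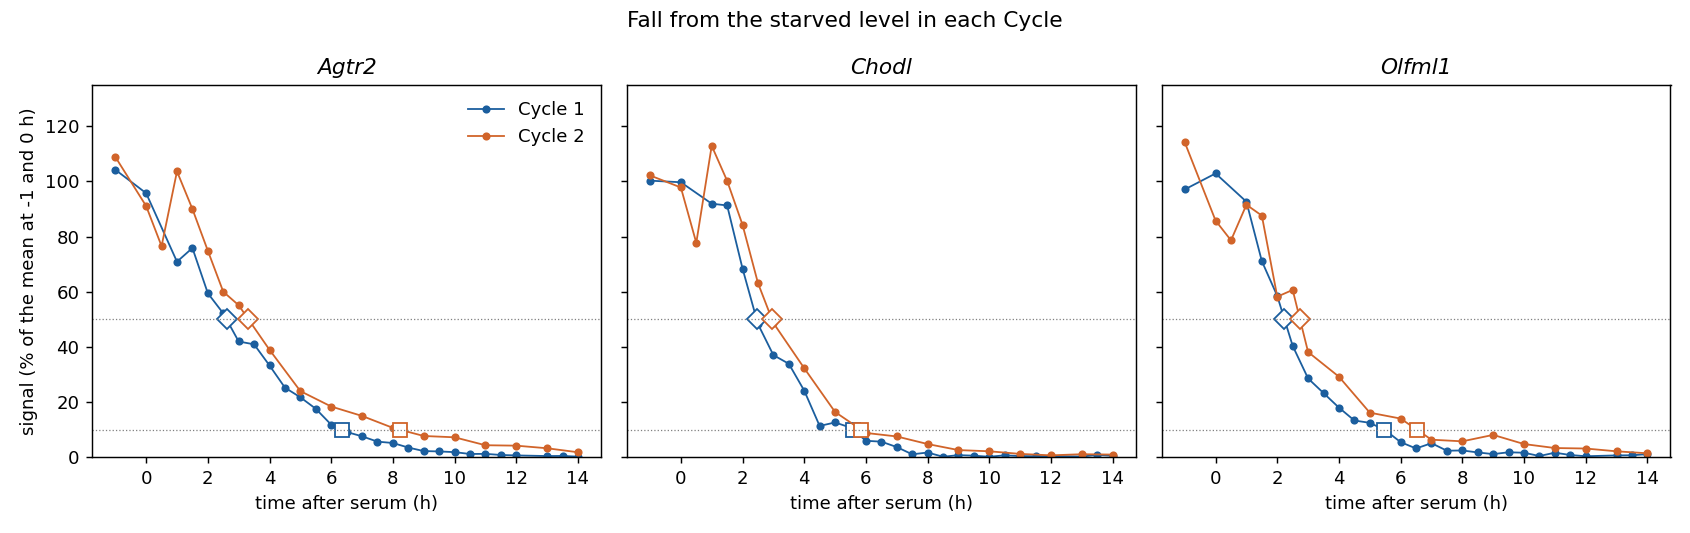
Signal of each gene as a percent of the mean of the -1 and 0 h libraries of its Cycle against time after serum (h), to 14 h; diamonds mark the interpolated half-time and squares the time at 10%. Half-times lie between 2.23 and 3.32 h, and the squares of Agtr2 are the furthest apart, at 6.34 and 8.22 h.

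In Cycle 1 the fall of Agtr2 could be followed for longer than that of the other genes, which were soon at a few reads. In the 11 libraries of Cycle 1 from 3.5 to 8.5 h its signal ranged from 341 to 3972 (median 1145), and in the 11 from 9 to 14.5 h from 21.3 to 217 (median 79.8). Chodl ranged from 0.79 to 146 (median 25.8) and then from 0.75 to 3.59 (median 1.84), the latter being 1 to 4 reads per library. Olfml1 ranged from 8.73 to 117 (median 27.5) and then from 0 to 9.03 (median 4.07), at most 11 reads. Chodl thus reached its low level within the first of these spans, while the highest value of Agtr2 in the later span was still 217. In Cycle 2 the pooled share of Olfml1 was 3.90% (2.85 to 5.24%) of its starved level from 9 to 14.5 h. It was 1.89% (1.34 to 2.61%) from 15 to 27 h without the 20 h library, so Olfml1 fell further there. The Chodl intervals of these 2 spans, 1.01 to 2.02% and 0.758 to 1.41%, overlapped.

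A further test used Cycle 1 libraries that did not enter the selection, those taken between whole hours. They come from the same time course as libraries that did, so the test is not independent of the selection. The 6 from 3.5 to 8.5 h, the 5 from 9.5 to 14.5 h and the 10 from 15.5 to 24.5 h were compared with limma on log2(signal + 1) over all genes, with Benjamini-Hochberg adjustment. Within a window the libraries follow a time course and are not replicates of a condition, so the spread includes the trend. Between the first 2 windows Agtr2 changed by -4.00 (SE 0.62, adjusted p = 1.96e-05, limma), Olfml1 by -3.03 (SE 0.68, adjusted p = 0.00124) and Chodl by -2.74 (SE 0.68, adjusted p = 0.00274). All 3 fell, where 10.4% of the 15895 genes were called lower. Genes chosen for a large fall at later hours were likely to be lower here too, so these calls are not separate support. Leaving out any single library kept these calls.

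From the 9.5 to 14.5 h window to the 15.5 to 24.5 h window, Agtr2 fell further, by 2.47 on the log2 scale (SE 0.56, adjusted p = 0.00236, limma). Chodl changed by -0.42 (SE 0.61, adjusted p = 0.696) and Olfml1 by 0.16 (SE 0.62, adjusted p = 0.894), and 8.14% of all genes were called lower. For Chodl and Olfml1 both windows lay at a few reads per library, where a further fall was not detectable at this depth. Without the 24.5 h library the Agtr2 change was -2.31 (adjusted p = 0.00427).

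Chodl and Olfml1 were already at low levels from 9 to 14.5 h, and all 3 genes were low from 15 to 27 h. In the 23 libraries of Cycle 1 in this span, Agtr2 ranged from 4.20 to 29.7 (median 15.0), Chodl from 0 to 5.40 (median 1.88) and Olfml1 from 0 to 8.52 (median 4.56). By pooled reads, Agtr2 kept 0.158% of its starved level (95% exact interval 0.142 to 0.175%), Chodl 0.470% (0.347 to 0.624%) and Olfml1 0.881% (0.717 to 1.07%). Against the -1 h library alone these were 0.150%, 0.468% and 0.914%. The intervals of Agtr2 and Chodl did not overlap, nor did those of Chodl and Olfml1. A count of 0 was found for Chodl at 24.5 h and for Olfml1 at 14.5 and 26 h, each of which allows up to 3 reads. No fold is given against these libraries alone. The -7.09 of Olfml1 at 26 h that served for the choice averages -8.23 in Cycle 1, where the count was 0, and -5.96 in Cycle 2. Its Cycle 1 part is thus set by the 1 added to the signal.

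In Cycle 2 the remainders were larger, and the 20 h library carried much of them. Over 13 libraries from 15 to 27 h the remainder was 1.32% for Agtr2, 1.72% for Chodl and 2.71% for Olfml1. Without the 20 h library they were 0.936% (0.773 to 1.12%), 1.04% (0.758 to 1.41%) and 1.89% (1.34 to 2.61%), and against the -1 h library alone 0.854%, 1.02% and 1.64%. Each of these intervals lay above that of the same gene in Cycle 1. For Agtr2 the mean signals were 15.1 in Cycle 1 and 9.50 in Cycle 2 without that library, under starved means of 9705 and 1043.

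The 20 h library of Cycle 2 was high for all 3 genes. Agtr2 was 62.8 there, against 10.4 at 19 h and 5.97 at 21 h. Chodl was 35.9, against 1.89 and 4.26, and Olfml1 was 22.9, against 2.83 and 4.26. These are 63, 36 and 23 reads, and 7.69, 11.7 and 6.47 times the mean of the neighbouring libraries. Of the 44 other genes that lay under 10% of their starved mean around this time, 38 were above the mean of their neighbours in this library and 16 (36.4%) were over 2-fold above, with a median ratio of 1.48. Among the remaining 10425 genes the median ratio was 1.02 and 0.662% were over 2-fold above. What set this library apart was not tested.

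Whether the fall differed between the Cycles was tested on the 20 to 27 h libraries, 8 per Cycle, against the starved libraries. These are libraries that the selection used, though it used the mean over both Cycles and not their difference, and the p-values carry that limit. The 8 are successive times of 1 course and not replicates of a condition. Agtr2 changed by -9.36 in Cycle 1 and by -6.64 in Cycle 2, a difference of -2.72 (SE 0.89, adjusted p = 0.0301, limma), where 13.4% of all genes had a larger fall or smaller rise in Cycle 1. The 20 to 27 h means were 14.8 in Cycle 1 and 14.3 in Cycle 2, or 7.36 in Cycle 2 without its 20 h library, beside starved means of 9705 and 1043. The difference thus lies mainly in the starved levels. The difference was -2.35 (adjusted p = 0.00280) without the 20 h library of Cycle 2. The call was lost without any single starved library (adjusted p = 0.0763 to 0.107) and without both 0 h libraries (-2.66, adjusted p = 0.187), with the size little moved. For Olfml1 the changes were -6.67 and -5.07, a difference of -1.60 (SE 0.98, adjusted p = 0.237, limma) that was called by edgeR on recovered reads (-1.66, adjusted p = 0.0262). For Chodl they were -6.80 and -5.74, a difference of -1.06 (SE 0.86, adjusted p = 0.384).

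Late in Cycle 1 the values of Agtr2 and Olfml1 were higher again from 34 h on, while Chodl stayed at a few reads. Agtr2 lay between 8.91 and 16.9 from 28 to 33 h and then read 26.6, 35.3, 53.0, 82.8 and 119 at 34, 35, 36, 37 and 38 h. Olfml1 lay between 2.83 and 6.83 and then read 8.31, 23.5, 30.3, 35.1 and 43.3. Chodl lay between 0.84 and 7.13 and then read 4.15, 1.96, 3.24, 7.79 and 7.54, which is 1 to 8 reads. For Agtr2 and Olfml1 each value from 34 h on was higher than the one before it. The Chodl values showed no such order. Many genes were higher at these hours: 24.4% of all genes were called higher over 34 to 38 h in the comparison set out below.

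**Figure D3:**
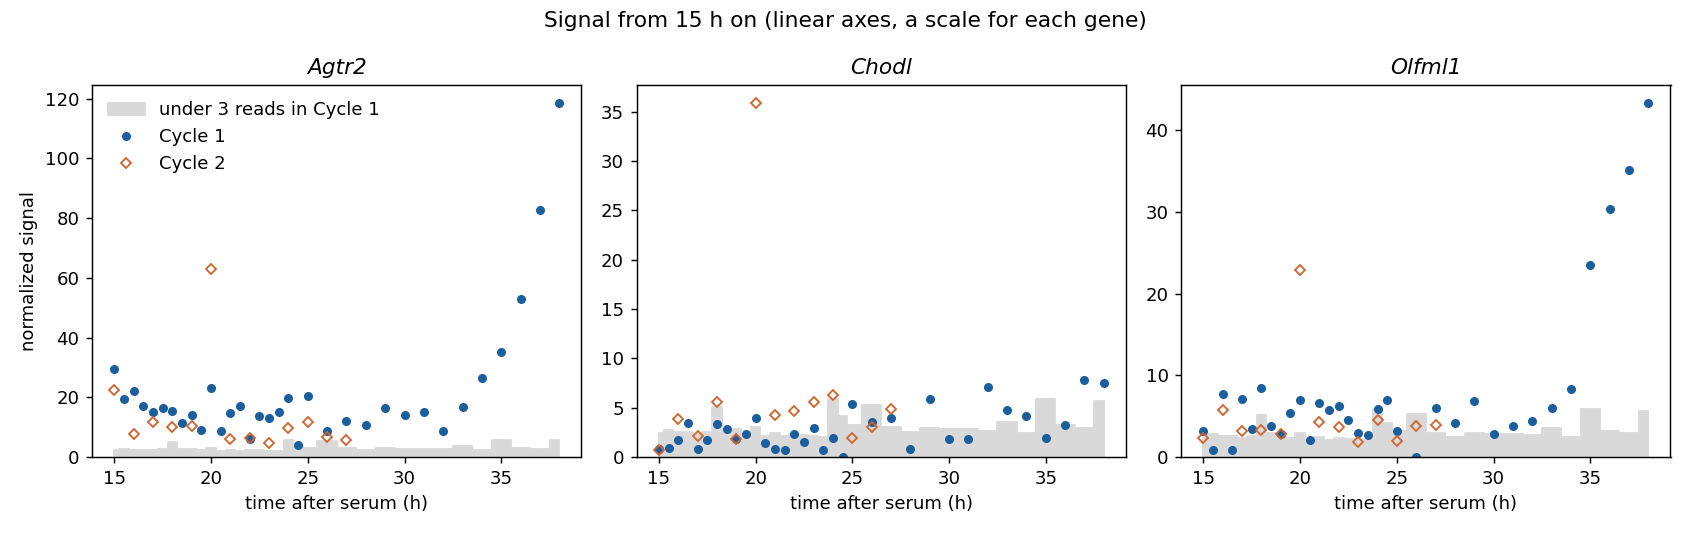
Normalized signal against time after serum (h) from 15 h on, Cycle 1 as blue points and Cycle 2 as open orange diamonds, with the level of 3 reads in Cycle 1 shaded. Agtr2 reaches 119 and Olfml1 43.3 at 38 h, Chodl stays under 8, and the 20 h diamond stands apart in each panel.

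The returned levels were small beside the starved ones. At 38 h, Olfml1 was at 8.64%, Chodl at 1.75% and Agtr2 at 1.22% of the starved mean of Cycle 1. Pooled over 34 to 38 h, Olfml1 stood at 5.14% (4.18 to 6.28%), Chodl at 1.16% (0.714 to 1.79%) and Agtr2 at 0.613% (0.538 to 0.695%). Over 28 to 33 h these shares were 0.912% (0.607 to 1.32%), 0.847% (0.534 to 1.28%) and 0.141% (0.112 to 0.174%). The intervals of the 2 spans were apart for Olfml1 and Agtr2 and overlapped for Chodl. Beside the 15 to 27 h span of Cycle 1, the 34 to 38 h interval was higher for all 3 genes. Chodl had 0.470% (0.347 to 0.624%) in that earlier span, so a small rise of Chodl is not excluded by its low counts.

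Over the 11 libraries from 28 to 38 h against the 10 libraries of the 15.5 to 24.5 h window, Olfml1 rose by 1.40 (SE 0.49, adjusted p = 0.0358, limma), where 13.6% of all genes were called higher. Agtr2 changed by 1.00 (SE 0.45, adjusted p = 0.0962) and Chodl by 0.99 (SE 0.49, adjusted p = 0.130). With the late window restricted to 34 to 38 h, a split made after the values were seen, 24.4% of all genes were called higher, and the changes were 2.61 for Olfml1 (adjusted p = 0.000543), 2.06 for Agtr2 (adjusted p = 0.00225) and 1.21 for Chodl (adjusted p = 0.136). With 28 to 33 h alone they were 0.39, 0.11 and 0.81, with adjusted p from 0.476 to 0.912, and 1.06% of all genes were called higher. The Olfml1 call of the full window was lost (adjusted p = 0.0571 to 0.0745) without the library of 15.5, 16.5, 20.5, 35, 36, 37 or 38 h, each taken alone. Cycle 2 ended at 27 h, so the late return has no second time course. Of the 5143 genes called lower in the comparison with starved cells, 18.8% were called higher in the full late window, against 11.1% of the rest.

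The angiotensin system around Agtr2 was read next. Of 22 listed genes 20 were in the table, and of the 19 other than Agtr2, 10 were called lower, 1 higher and 8 not called after serum, where 32.4% of all genes were called lower and 14.0% higher. The call was a limma F test over the shared hours whose calls needed an adjusted p below 0.05 together with a log2 change of more than 1 either way. The list's median change at the hour of largest change was -1.85, against -0.88 over all genes. Without both 0 h libraries 7 were called lower and 2 higher, against 4880 and 2086 over all genes. Changes below are given at each gene's hour of largest change.

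Agtr1a, which encodes the type 1 receptor that carries most known actions of angiotensin II, fell by 4.84 on the log2 scale at 6 h (SE 0.53, adjusted p = 3.8e-07, limma). It had starved means of 173 and 104, half-times of 2.02 and 2.10 h, a mean of 20.5 from 20 to 27 h of Cycle 1 and a signal of 20.7 at 38 h. Per kilobase its starved signal was 70.2 in Cycle 1 and 42.3 in Cycle 2, under that of Agtr2 in both. Agtr1b, the second type 1 receptor gene of the mouse, was near the floor with starved means of 2.87 and 0.48. Some peptidases of the pathway were lower as well: Enpep, the aminopeptidase that trims angiotensin II, by -3.52, Ace, the converting enzyme, by -2.95, Mme (neprilysin) by -2.68 and Anpep by -2.58. Ace was slower than the 3 genes, with half-times of 7.70 and 9.43 h, and was lower still in the late window (-1.23, adjusted p = 1.41e-06, limma). The peptidase genes Lnpep (-1.15), Ctsa (-0.71), Nln (-0.45) and Prep (0.93) were not called. Thop1, an oligopeptidase that cleaves angiotensin I, rose by 1.56 at 26 h (adjusted p = 0.00148). Agt, the precursor, had starved means of 21.9 and 6.44 and was not called.

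The lectin family held genes called in both directions. Of 26 C-type lectin domain genes in the table other than Chodl, 8 were called lower and 7 higher, with a median of -1.21, beside 32.4% lower and 14.0% higher over all genes, so the share of lower calls is near the background. Both counts were the same without the 0 h libraries. With the Cycle as a block 14 were lower and 8 higher, and with a minimum mean signal of 10, 5 of 22 were lower. Layn, which encodes layilin, the closest relative of chondrolectin, went opposite to Chodl and rose by 1.78 at 4 h, to 1087 and 802 from starved means of 200 and 368. Selp and Sele, the selectins of activated endothelium, rose by 4.75 and 3.83, and Klrg2 by 3.05. Their starved means were low, 0 and 8.8 for Selp, 6.5 and 5.8 for Sele and 3.0 and 7.7 for Klrg2. Lower were Clec14a (-3.73), Clec1a (-3.52) and Clec11a (-3.16), beside -7.77 for Chodl, which was chosen by this measure. Clec1a had starved means of only 9.23 and 12.0 and was at 0 in both Cycles at its hour, so the floor limits its change.

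Of 12 olfactomedin domain genes other than Olfml1, 4 were called lower, 2 higher and 6 not called, with a median of -1.54, shares near the 32.4% and 14.0% over all genes. Without the 0 h libraries 4 were lower and 1 higher. Olfml3, the nearest named paralog, had starved means of 3179 and 2126, fell by 2.11 at 15 h (SE 0.27, adjusted p = 5.2e-10, limma), and was back at 2021 at 38 h. Its late rise was 0.78 (adjusted p = 0.00116, limma). Half-times of 5.66 and 9.58 h were later than those of Olfml1. Olfm4 (-2.65) and the latrophilins Lphn2 (-2.32) and Lphn3 (-2.19) were lower too, while Olfm2 rose by 3.60 and Gldn (gliomedin) by 2.19. Olfm4 was near the floor, with starved means of 5.90 and 4.86 and 0 in both Cycles at its hour.

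The growth arrest specific genes, most of them first cloned for their expression in serum-starved fibroblasts, gave 6 of 10 lower, with a median of -2.18, where 32.4% of all genes were lower. Without the 0 h libraries 6 were lower too. By limma 0 of 10 were higher (1 at an unadjusted p under 0.05, with a log2 change under 1), where 14.0% of all genes were. By edgeR 5 of 7 were lower and 0 higher, beside 3311 and 2106 of 12604 genes. With so few genes the 0 is not read as a result. Gas1, a membrane protein that blocks entry into S phase, fell by 4.49 at 15 h, and at 38 h it stood at 2131 against starved means of 7292 and 3592. Its half-times of 1.49 and 1.94 h preceded those of the 3 genes. Gas2 fell by 3.15, Pmp22 (the myelin protein first known as Gas3) by 2.70, Gas6 by 2.43, Gas7 by 2.29 and Ddit3 (Gadd153) by 2.07. In the late window limma called 4 of the 10 higher, beside 13.6% of all genes, and 0 lower (1 at an unadjusted p under 0.05). By edgeR 3 of 7 were higher and 0 lower there. Shares over all genes are not given for these edgeR calls or for lower calls in the late window, so neither is read as a result.

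**Figure D4:**
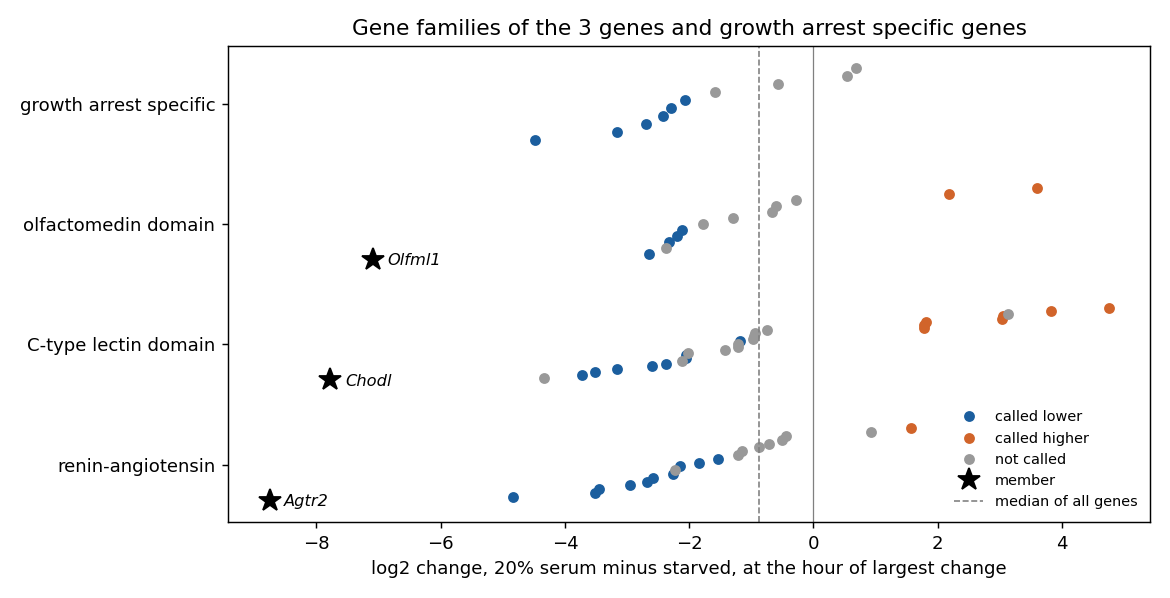
Log2 change in 20% serum against starved cells at each gene's hour of largest change, for 4 gene lists; blue and orange points were called lower and higher, grey points were not called, and stars are Agtr2, Chodl and Olfml1, chosen by this measure. The dashed line is the median of all genes, -0.88.

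Across the 63 libraries of Cycle 1, the genes whose log2 signal followed Agtr2 most closely among 10909 with a starved mean of at least 50 were Matn2 (r = 0.986), Islr (0.985), Enpp2 (0.980), Igfbp5 (0.977) and Ogn (0.976). In the 32 libraries of Cycle 2 the same genes had r of 0.986, 0.964, 0.923, 0.978 and 0.966. All 5 encode secreted proteins. Igfbp5, which binds insulin-like growth factors, went from 18002 to 212 in Cycle 1 and from 5120 to 459 in Cycle 2, as means of the starved and the 20 to 27 h libraries. Ogn (osteoglycin) was at 2106 at 38 h, up by 1.03 in the late window (adjusted p = 0.0284, limma).

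Closest to Chodl were Lpl (r = 0.954), Sepp1 (0.950), Plagl1 (0.949), Laptm4a (0.947) and Mest (0.946), with 0.931 to 0.969 in Cycle 2. Plagl1 and Mest are imprinted genes of fetal growth, and Lpl is lipoprotein lipase. Closest to Olfml1 were Dkk3 (0.955), Enpp5 (0.944), its paralog Olfml3 (0.943), Sulf2 (0.937) and Nid2 (0.935), with 0.842 to 0.979 in Cycle 2. Between the members, r was 0.886 between Agtr2 and Chodl, 0.869 between Agtr2 and Olfml1 and 0.903 between Chodl and Olfml1 in Cycle 1, and 0.927, 0.949 and 0.980 in Cycle 2. In Cycle 1, Chodl ranked only 316 and Olfml1 388 by r with Agtr2, and Olfml1 ranked 72 by r with Chodl. For Agtr2, 238 genes had an r of at least 0.9. From 15 h on in Cycle 1 the r between the members was 0.43, 0.66 and 0.30, in the same order. These are descriptions over libraries that share their time course and depth, and the low counts of Chodl and Olfml1 weaken the later ones.

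The nearest measured genes on the chromosome are given as a description. Around Agtr2 they were Zfp300 at 395 kb, with starved means of 18.9 and 19.8 and called lower (-2.90), and Slc6a14 at 226 kb, with 7.11 and 0.41, not called. Around Chodl, D16Ertd472e at 354 kb had 185 and 157 and was called higher (1.25 at 2.5 h), and Ncam2 at 2249 kb had 24.6 and 8.62 and was called lower (-3.97). Around Olfml1, Syt9 at 18.8 kb had 13.6 and 4.92 and Ppfibp2 at 3.96 kb had 107 and 57.3, both called lower (-2.71 and -1.49).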

How the data were processed

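RNA of 96 samples was sequenced, and 95 columns were used; 1 column has a name matching no single sample and was left out. Per the labels and the submitters' processing notes, poly(A) libraries were demultiplexed with CASAVA and aligned with STAR to mm9 (NCBIM37). The authors counted reads on exons with HOMER and deposited a normalized signal scaled to 10000000 per library. Of the rows, 12604 hold single transcripts, the 3 genes included, and 3291 averages. Whole reads were recovered from the column steps (99.8 to 100% of low single-transcript values within 0.1 of a whole read); depth had a median of 10832557.

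Log2(signal + 1) was tested with limma 3.58.1 in R 4.3.3, and edgeR 4.0.16 tested recovered reads. The Cycle number pairs libraries of 1 time course: deviations between Cycles correlated over 406 pairs of hours with a median of 0.303, and 97.0% were over 0.1. Named genes were the members, 5 genes most correlated with each, chromosomal neighbours, paralogs and up to 6 called genes per list by size, of which 1 is not reported here. The members and lists were chosen with earlier results of these data known. Alternatives covered pseudocount, low filter, scaling, tool, baseline, block and libraries left out. Scripts were tested on simulated data, and values with intervals are exact (binomial split of reads).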

Additional observations from a re-analysis of the deposited data

Results flagged for a closer look

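Among 18 groups of 4 to 10 libraries searched for a value apart from the rest (Dixon's criterion, which chance meets in about 1 group in 20), 4 held one. In the 8 libraries of Cycle 2 from 20 to 27 h, the 20 h library was the highest for Agtr2 (62.8), Chodl (35.9) and Olfml1 (22.9), so these 3 cases are 1 library. Among the 6 libraries of Cycle 1 taken between whole hours from 3.5 to 8.5 h, Chodl at 3.5 h (146) stood apart, at the start of a falling series. The change of Agtr2 from starved cells to 20 to 27 h differed between the Cycles by -2.72 on the log2 scale (limma interaction, adjusted p = 0.0301), a call lost when any single starved library was left out. The 20 to 27 h libraries are successive times of each course, and the selection used them. The causes were not tested.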

How the results depend on the processing

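The windows up to 24.5 h kept their calls and directions for the 3 genes in all alternatives run, apart from the sign of the uncalled Olfml1 change, -0.31 to 0.52 with libraries left out. The late rise of Olfml1 was 0.70 with a pseudocount of 10 (adjusted p = 0.0619), 1.20 to 1.55 with single libraries left out and 0.39 for 28 to 33 h alone. That of Agtr2 was 2.06 for 34 to 38 h alone. The difference between Cycles for Agtr2 was -2.85 to -2.60 with a starved library left out and -2.66 without both 0 h libraries, no longer called, and for Olfml1 it was called with a pseudocount of 10 (-1.49) and by edgeR (-1.66). These splits of the late window and the removal of the 0 h libraries were chosen after seeing the data. Half-times moved by less than the spread between Cycles in all alternatives run.

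Over all genes, 5143 were called lower and 2222 higher. With the Cycle as a replicate block, which uses the pairing, the counts were 5886 and 2466, and no test of a member could take the block. By edgeR 3311 of 12604 were lower. With single libraries or a whole Cycle left out they ranged from 0 to 5363 lower and from 0 to 2596 higher. The 0 came from leaving out a whole Cycle, which leaves single libraries per hour, and then 5494 (without Cycle 1) and 6445 (without Cycle 2) genes had an unadjusted limma p under 0.05. TMM scaling shifted the change of all genes by 0.17 and took the share of lower calls from 69.8% to 57.9%, with 10 of 19 renin-angiotensin, 8 of 26 lectin, 4 of 12 olfactomedin and 6 of 10 growth arrest genes still lower. Depth limits Chodl and Olfml1 after about 8 h to low counts, from 15 to 27 h of Cycle 1 to at most 5 and 9 reads per library. Olfml1 had 10 to 36 reads per library from 34 to 38 h.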
